A study of Mus musculus with 10 samples.

Results

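The Hox cluster genes are described here in MC3T3-E1 cells, a line of bone-forming precursor cells from newborn mouse skull. The members were all rows of the deposited gene table whose symbol is Hox, a cluster letter from a to d and a number. The table held 40 such rows of 29583, which stood for 39 genes because Hoxd4 was listed under 2 identifiers. Counts and levels were taken for every row in each of the 10 libraries. In the study, cells labelled with the strain C57BL/6 and the age newborn were cultured in a standard medium with β-ecdysterone, a plant sterol, at 0, 100, 150 or 200 μM for 5 or 10 days, and mRNA was enriched on oligo(dT) beads and sequenced. Each dose and day had 1 library, so the 3 doses on each of 2 days gave 6 treated libraries, which stood in as replicates, and the 0 μM arm had 2 libraries, of day 5 and of day 10. The labels give n = 3 for the extraction of RNA, and whether a library pools 3 cultures or comes from 1 of them is not stated in the sources used here. A further 2 libraries were labelled as untreated, with neither a dose nor a time, and are shown beside the others but were kept out of the main tests. These 2 differed from each other in several genes outside the clusters, such as the retinoic acid enzyme Aldh1a1 (2.96 and 111 FPKM), Egr2 (16.9 and 0.852) and Ezh1 (11.1 and 34.0). For these genes the first was closer to the level at 0 μM. The second was within the range of treated cells for Aldh1a1, just below it for Egr2 and above it for Ezh1 (23.9 to 28 FPKM). Results against both untreated libraries thus rest on a pair that is uneven for some genes. Several Hox genes differed less between the 2, such as Hoxa5 (2.14 and 1.63 FPKM), Hoxa6 (1.72 and 1.48), Hoxb4 (0.222 and 0.274) and Hoxb6 (1.18 and 1.1). All groups share 1 cell line (subclone 14), and no label ties libraries to separate cultures, so the p-values below measure the spread between these libraries, which may be technical. The sample titles name MC3T3-E1 while the source field names bone marrow mesenchymal stem cells.

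Hox genes encode homeodomain transcription factors that give cells of the embryo their position along the head-to-tail axis. They lie in clusters in which the order of the genes follows the order of their activity along the axis. Genes of low paralog number act toward the hindbrain and neck, and genes of high number act in the lower trunk, the limbs and the genital region. Polycomb proteins keep clustered genes silent, and retinoic acid opens the low-numbered end. The neural crest that builds the face and the frontal bone is known for developing without Hox expression, while mesoderm of the trunk keeps the Hox code of its level into adult life.

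In these cells HoxA and HoxB were active in part and HoxC and HoxD were silent or nearly so. A gene was called expressed at a mean of at least 1 FPKM over the 8 libraries with a stated time, where FPKM is the count scaled to transcript length and library size by the authors. It was called silent at no more than 3 counts in each of the 10 libraries, and low otherwise. By these limits 7 of the 40 rows were expressed, 14 were low and 19 were silent. The expressed genes were Hoxa2, Hoxa3, Hoxa5, Hoxa6, Hoxa10, Hoxb3 and Hoxb6. Of the 19 silent rows, 12 rows for 11 genes had 0 counts in all libraries. HoxA took 72.0% of all 14882 Hox counts, HoxB 27.6%, HoxC 0.37% and HoxD 0.0672%. Levels were modest. Hoxa10, the highest, had a mean of 3.92 FPKM and ranked 9034 among the 22036 rows with an Ensembl identifier. In bulk RNA a lower level in each cell cannot be told apart from fewer cells with the transcript.

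A sharp step lay between 2 neighbours, Hoxa10 and Hoxa11. On chromosome 6 of the mouse genome GRCm38, as annotated in GENCODE M21, Hoxa10 (52231197 to 52240854) and Hoxa11 (52242106 to 52245810) sit on the minus strand 1251 bases apart. Hoxa10 had 3258 counts in total over the 10 libraries and Hoxa11 had 2. The sequences before the starts of both genes are shown because they flank this step, and that of Hoxa9, the next gene on the other side of Hoxa10, because it is the 1 Hox gene called as changed by treatment. Each is the 250 bases before a RefSeq start in GRCm38.p6, read 5′ to 3′ on the minus strand, with CpG dinucleotides in capitals. RefSeq places 2 starts in Hoxa10. The outer window is chr6:52240855-52241104 and the inner one chr6:52234940-52235189. The window of Hoxa11 is chr6:52245811-52246060, of which 98 bases lie in an exon of the antisense gene Hoxa11os, and that of Hoxa9 is chr6:52227371-52227620.
Hoxa11: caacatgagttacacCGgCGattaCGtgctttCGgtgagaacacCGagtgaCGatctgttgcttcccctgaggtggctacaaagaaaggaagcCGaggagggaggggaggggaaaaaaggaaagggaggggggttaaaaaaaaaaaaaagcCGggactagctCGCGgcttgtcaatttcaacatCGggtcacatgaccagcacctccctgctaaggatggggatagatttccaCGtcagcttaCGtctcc
Hoxa10, outer start: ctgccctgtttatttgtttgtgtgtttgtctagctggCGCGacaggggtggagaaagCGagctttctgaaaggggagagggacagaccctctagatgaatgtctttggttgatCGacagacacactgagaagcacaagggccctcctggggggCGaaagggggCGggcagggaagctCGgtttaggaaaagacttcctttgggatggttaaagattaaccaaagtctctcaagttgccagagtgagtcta
Hoxa10, inner start: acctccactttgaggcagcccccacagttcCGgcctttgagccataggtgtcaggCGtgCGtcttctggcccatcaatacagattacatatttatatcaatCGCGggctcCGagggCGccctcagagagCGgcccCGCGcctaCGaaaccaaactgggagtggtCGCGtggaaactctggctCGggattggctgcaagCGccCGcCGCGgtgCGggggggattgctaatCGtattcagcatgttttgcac
Hoxa9: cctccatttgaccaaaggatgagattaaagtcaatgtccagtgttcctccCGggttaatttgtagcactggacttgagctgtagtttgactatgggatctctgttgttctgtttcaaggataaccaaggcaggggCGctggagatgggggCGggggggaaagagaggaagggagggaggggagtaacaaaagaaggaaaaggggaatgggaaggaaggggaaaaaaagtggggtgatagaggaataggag

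The window of silent Hoxa11 held 13 CpG dinucleotides, between the 20 of the inner and the 7 of the outer start of Hoxa10, and that of Hoxa9 held 3. RefSeq gave 24 such windows for 22 of the 39 Hox genes. Their median GC content was 58.6%, against 52.4% over all 32851 promoter windows, and their median number of CpG dinucleotides was 12.5 against 6. The 6 windows of expressed genes had a median of 61.4% GC and a CpG ratio (observed to expected) of 0.8, and the 13 windows of silent genes had 59.2% and 0.52. The ranges overlapped widely, from 6 to 28 CpG dinucleotides in expressed and from 2 to 35 in silent genes. Of 3 short motifs searched on both strands, none of which contains another, CCAAT stood in 14 of the 24 windows (58.3%, against 33.8% of all windows). TATAAA stood in 4 (16.7% against 12.4%). AGGTCA, the half-site of nuclear receptors such as those for retinoic acid, stood in 6 (25.0% against 14%). These were 5 of the 13 windows of silent genes, 1 of a low gene and 0 of the 6 windows of expressed genes. So few windows cannot show a difference between the classes. The windows of expressed genes were also all of HoxA, while the 5 matches were before Hoxc4 and HoxD genes. The windows of Hoxa3 and Hoxc4 lay wholly within annotated exons. All motif hits are matches of letters and not shown sites.

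**Figure D1:**
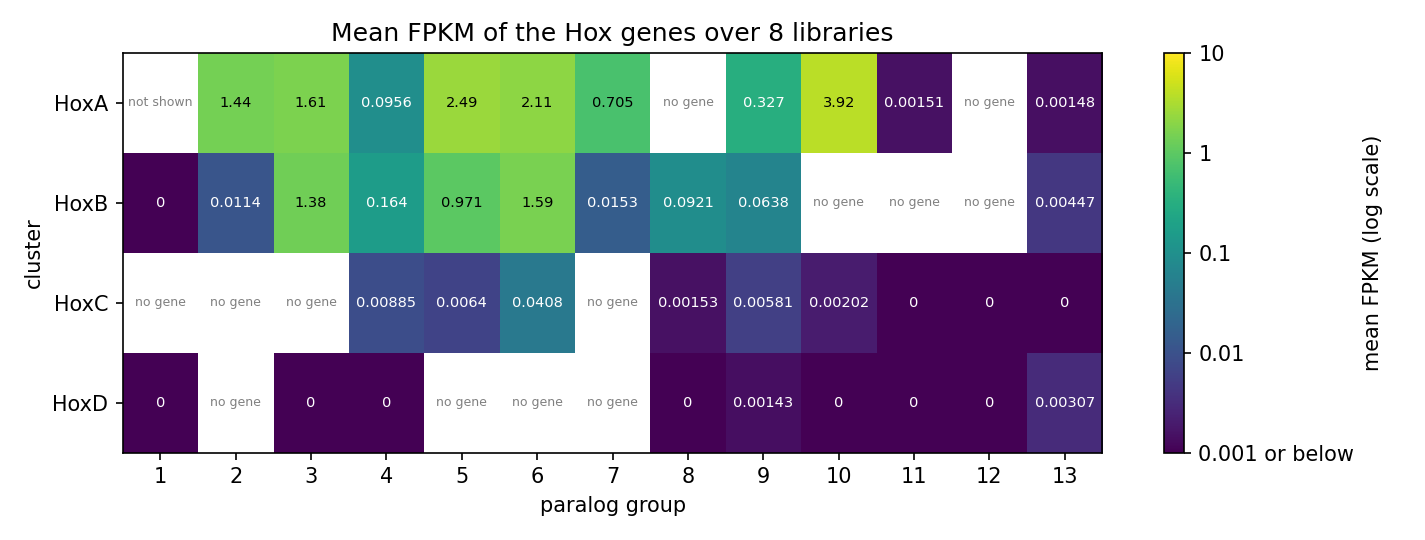
Mean FPKM over the 8 libraries with a stated time, with the clusters as rows and the paralog groups as columns; color is on a log scale, each cell prints its mean, and white cells have no gene or are not shown. Values above 1 lie only in HoxA and HoxB, with 3.92 in Hoxa10 beside 0.00151 in Hoxa11.

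From Hoxa2 to Hoxa13, HoxA spans chromosome 6 from 52162417 to 52260880. Its genes from Hoxa2 to Hoxa10 were counted in all 10 libraries, and the 2 beyond them, Hoxa11 and Hoxa13, had 2 counts in 1 library each. Hoxa10, known from patterning of the lumbar region and the uterus, had 3.97, 4.0 and 3.84 FPKM at 100, 150 and 200 μM on day 5 and 4.29, 3.54 and 4.31 FPKM on day 10. It had 3.53 FPKM at 0 μM on day 5, 3.89 on day 10, and 3.45 and 3.77 in the untreated libraries. The groups overlapped, and no library stood apart. Hoxa5 (52201754 to 52204587), which acts in the neck, the shoulder and the lung, had 2.80, 2.20 and 2.30 FPKM at the rising doses on day 5 and 1.93, 2.09 and 2.20 on day 10. It had 3.08 and 3.30 FPKM at 0 μM on days 5 and 10, above all treated libraries, but 2.14 and 1.63 in the untreated libraries. Hoxa6 had a mean of 2.11 FPKM, Hoxa3, a patterning gene of the pharyngeal arches, 1.61, and Hoxa2, which sets the identity of the second arch, 1.44. Levels did not run evenly along the cluster. Hoxa7 (0.705 FPKM) and Hoxa9 (0.327) lay below the limit, and Hoxa4, set within the span of Hoxa3, had 0.0956 FPKM and 3 to 12 counts per library.

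HoxB spans chromosome 11 from 96194316 to 96368256, and its activity lay in the middle of the cluster. Hoxb3, Hoxb4, Hoxb5, Hoxb6 and Hoxb8 were counted in all 10 libraries. Hoxb6 (96292476 to 96301569) was the highest, with 1.37, 1.43 and 1.84 FPKM at 100, 150 and 200 μM on day 5 and 1.53, 1.12 and 1.54 on day 10. It had 1.68 and 2.24 FPKM at 0 μM on days 5 and 10 and 1.18 and 1.10 in the untreated libraries, so the treated range held the lower of the 0 μM values. Hoxb3 (96323326 to 96347930) had 1.68, 1.33 and 1.38 FPKM at the rising doses on day 5 and 1.29, 1.37 and 1.53 on day 10. Its values were 1.34 and 1.09 at 0 μM and 0.810 and 0.956 in the untreated libraries, which were the lowest. Hoxb5 had a mean of 0.971 FPKM and Hoxb4, known for its part in blood stem cells, 0.164. Hoxb8 had 0.0921 FPKM. Toward the low-numbered end Hoxb2 had 9 counts in total, from 3 libraries, and Hoxb1, a gene of the fourth hindbrain segment, had 0. Toward the other end Hoxb7 had 9 counts in total and Hoxb9 had 67. Hoxb13, set 74009 bases from Hoxb9, had 3 counts, all at 0 μM on day 10. In both clusters the order of levels did not follow the order of the genes.

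**Figure D2:**
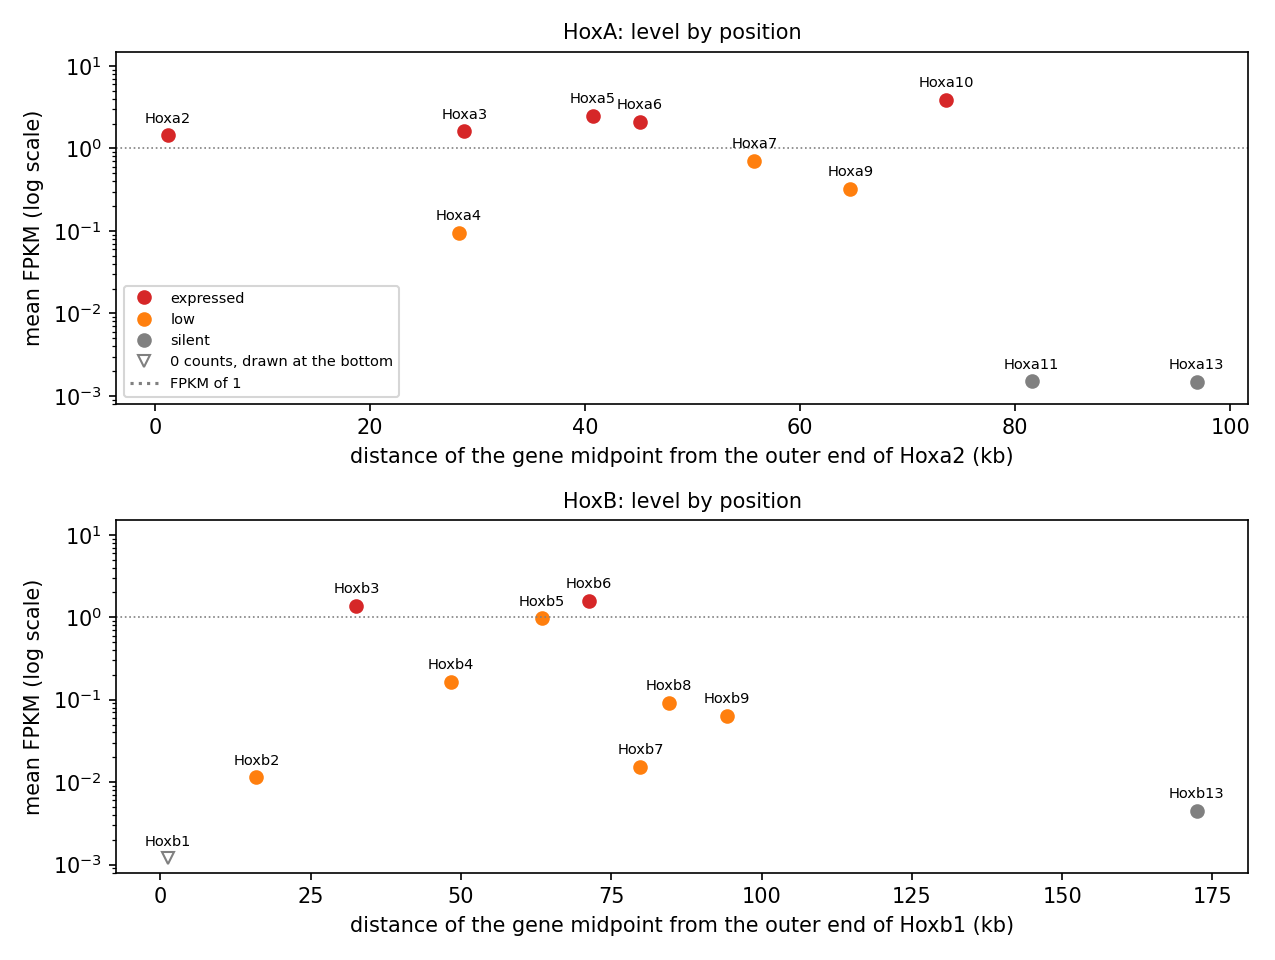
Mean FPKM (log scale) of HoxA genes from Hoxa2 on and of all HoxB genes against the distance in kb of its midpoint from the outer end of Hoxa2 or of Hoxb1. Red points are expressed, orange low and grey silent genes, the dotted line marks 1 FPKM, and the open triangle is Hoxb1 with 0 counts; HoxA drops after Hoxa10, and HoxB is highest at Hoxb6 and Hoxb3.

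Across paralog groups, which join the genes of like number in different clusters, expressed genes lay in groups 2, 3, 5, 6 and 10. Group 6 and group 3 each had 2 expressed genes, Hoxa6 with Hoxb6 and Hoxa3 with Hoxb3. Groups 11 and 12, which pattern the forearm and the lower spine, had 5 genes and all were silent. Of the 4 genes of group 13, which act in the hands, feet and genital region, 3 were silent, and Hoxd13 was low through 4 counts in 1 untreated library. Of group 1, the nearest to the hindbrain, Hoxb1 and Hoxd1 had 0 counts.

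HoxC (chromosome 15, 102921103 to 103036852) and HoxD (chromosome 2, 74668310 to 74765142) had only scattered counts. The 9 HoxC genes had 55 counts in all, and Hoxc11, Hoxc12 and Hoxc13 had 0. Hoxc6 (102998257 to 103011881), active in the chest region of the embryo, had the most. It had 0, 2 and 4 counts at 100, 150 and 200 μM on day 5 and 4, 6 and 8 on day 10, against 4 and 0 at 0 μM and 0 in both untreated libraries. In FPKM its highest value was 0.0774, at 200 μM on day 10. Hoxc4 had 3 counts in each of 3 libraries, 150 and 200 μM on day 5 and 150 μM on day 10, and 0 in the other 7. Hoxc5 had 10 counts in total, and Hoxc8, Hoxc9 and Hoxc10 had a count in 1 library each. In HoxD, Hoxd13 (74668310 to 74671599) had 4 counts in 1 untreated library and 2 counts each at 0 μM and at 150 μM on day 5. Hoxd9 had 2 counts at 200 μM on day 10 and 0 elsewhere. The other 7 HoxD genes had 0 counts.

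The summed HoxC counts were 51 in the treated libraries, or 0.199 counts per 1000000 of all counts (CPM), 4 at 0 μM (0.0498 CPM) and 0 in untreated cells. HoxD had 4 counts in treated cells (0.0156 CPM), 2 at 0 μM (0.0249 CPM) and 4 in untreated cells (0.0683 CPM). Depth moved with these counts. The 8 HoxC and HoxD genes with any count had 0.211 CPM in the 4 deepest libraries and 0.108 CPM in the 6 shallower ones. The 4 deepest were 0 μM on day 5, 150 μM on both days and 200 μM on day 10. Both untreated libraries were among the 6, so depth and treatment are mixed in this split. The part of depth in the detection of these genes was not tested. No HoxC or HoxD gene passed the filter on low counts, so treatment was not tested for them. Library totals ran from 27108562 to 58218009 counts. A count of 0 in a library allows up to 3 counts, or 0.0515 to 0.111 CPM, and a count of 0 in all 10 allows 0.0076 CPM, for counting error only. A count of exactly 1 was rarer in the table than a count of 2, with 229 to 315 rows per library against 1020 to 1412, so single reads may be missing from the sparsest genes.

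**Figure D3:**
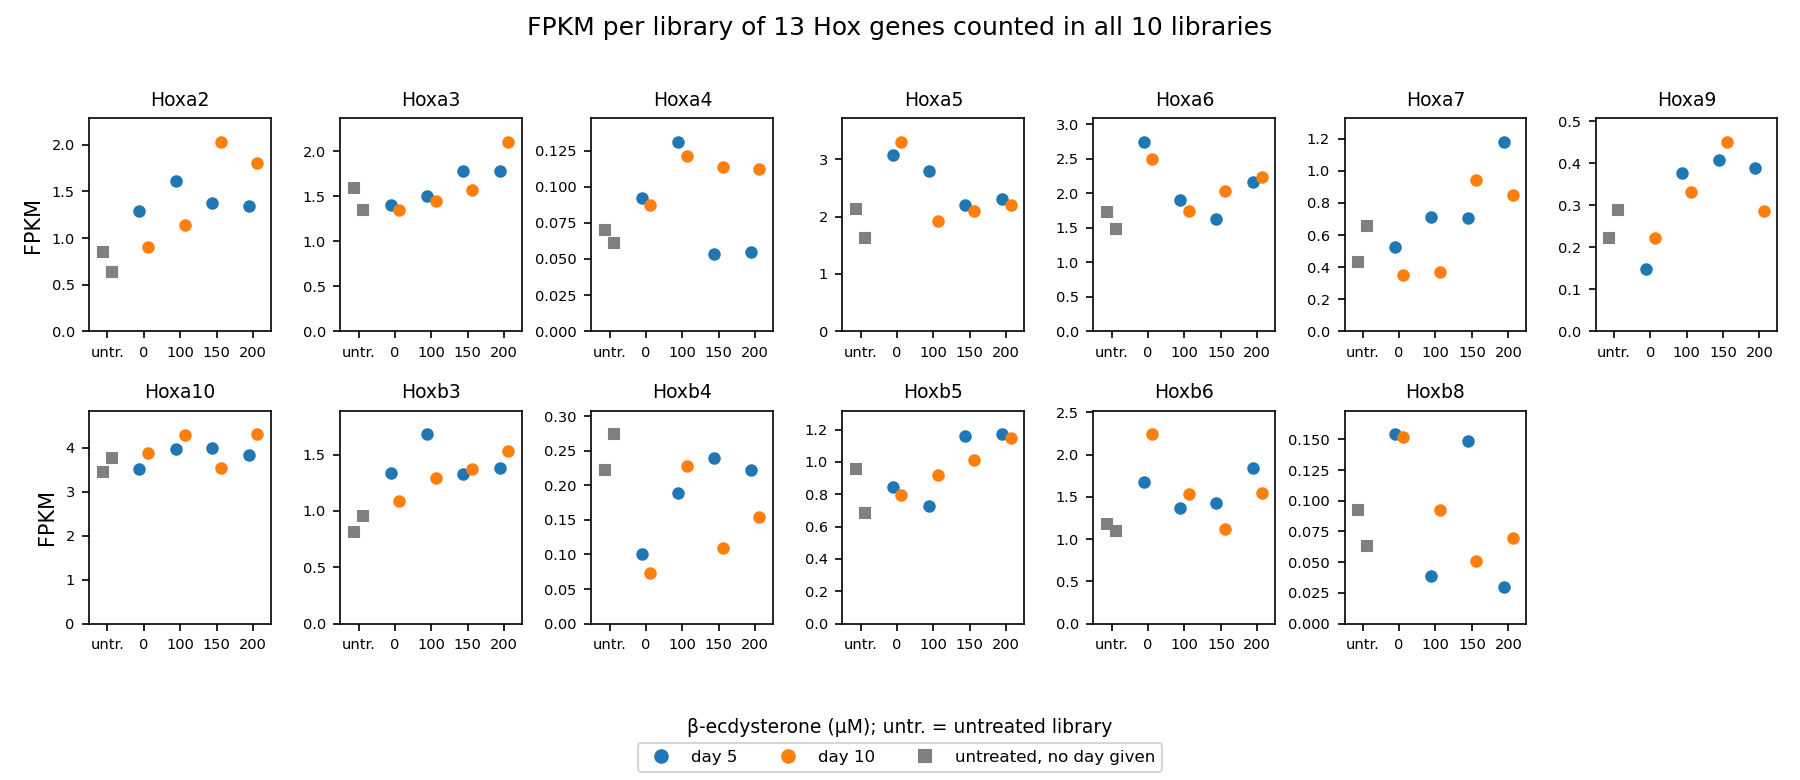
FPKM of 13 Hox genes with a count in all 10 libraries; each point is 1 library, by dose of β-ecdysterone in μM, blue on day 5, orange on day 10 and grey squares for the untreated libraries, with an axis of its own for each gene that starts at 0. For Hoxa9 the 6 treated libraries (0.287 to 0.451 FPKM) lie above those at 0 μM (0.149 and 0.221), and the untreated libraries had 0.222 and 0.290.

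The next question was whether β-ecdysterone changed this pattern. By the mean of the 6 treated libraries 8 genes reached 1 FPKM, and by the mean of the 2 libraries at 0 μM 7 did. By the mean of the 2 untreated libraries 5 did, since Hoxa2 (0.854 and 0.640 FPKM) and Hoxb3 (0.810 and 0.956) lay below 1. Between treated cells and 0 μM the 1 gene that differed was Hoxb5, a gene of neck and shoulder level. It had 0.724, 1.16 and 1.17 FPKM at 100, 150 and 200 μM on day 5 and 0.917, 1.01 and 1.15 on day 10, a mean of 1.02 ± 0.178 (SD, n = 6), against 0.842 and 0.794 at 0 μM. The ranges overlapped. The 6 treated libraries were set against the 2 at 0 μM with edgeR (quasi-likelihood, day as a second term) over all genes. A call needed a log2 fold change beyond 1 in either direction and a Benjamini-Hochberg adjusted p under 0.05. Of the 40 rows 14 passed the filter on low counts, 8 of HoxA and 6 of HoxB, and 1 was called, higher in treated cells, against 19.4% of all 16794 genes tested (13.4% called higher and 5.98% lower). Without the fold limit 2 of the 14 passed, against 43.3% of all genes. Among the 14, 10 fold changes were positive and 4 negative, with a median log2 fold change of 0.36 against 0.05 for all genes. The median absolute change was 0.45 against 0.42.

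The called gene was Hoxa9 (ENSMUSG00000038227, chromosome 6, 52223100 to 52231089), which acts in the trunk and limbs and in blood progenitors. It had 0.377, 0.407 and 0.390 FPKM at 100, 150 and 200 μM on day 5 and 0.332, 0.451 and 0.287 on day 10. At 0 μM it had 0.149 FPKM on day 5 and 0.221 on day 10, below all 6 treated libraries. The counts behind these values were 34 to 91 in treated cells and 27 and 25 at 0 μM. The log2 fold change was 1.09 (standard error 0.31, 95% interval 0.40 to 1.78), a 2.13-fold rise, with an adjusted p = 0.0174 by edgeR. Even so, its mean of 0.374 ± 0.0578 FPKM (SD, n = 6) in treated cells stayed below the limit for expression. The call was lost without the 0 μM library of day 5, where the log2 fold change was 0.79 and the adjusted p = 0.177 by edgeR. When the untreated libraries stood in for 0 μM it was 0.56 (adjusted p = 0.208 by edgeR). The annotated span of Hoxa9 ends 107 bases from that of Hoxa10, which in the same comparison had a log2 fold change of 0.13 (95% interval -0.17 to 0.44).

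The other HoxA genes were not called. For Hoxa5 the log2 fold change came to -0.45 (standard error 0.16, 95% interval -0.82 to -0.09, adjusted p = 0.0478 by edgeR). It passed the p limit but not the fold limit, and against the untreated libraries the change was 0.29. Its neighbour Hoxa6 had -0.38 (95% interval -0.87 to 0.11), and all 6 treated libraries (1.62 to 2.23 FPKM) lay below 0 μM (2.74 and 2.49). Against the untreated libraries it was 0.32. Toward the low-numbered end, Hoxa2 had 0.53 (-0.08 to 1.15) and Hoxa3 0.35 (-0.07 to 0.77) as log2 fold changes with 95% intervals, neither past the p limit. Hoxa2 had 1.61, 1.38 and 1.34 FPKM at 100, 150 and 200 μM on day 5 and 1.14, 2.03 and 1.80 on day 10, against 1.29 and 0.899 at 0 μM. Against the untreated libraries, both below all treated ones, Hoxa2 was called with a log2 fold change of 1.07 (adjusted p = 0.0312 by edgeR), and with them added to 0 μM it had 0.79 (adjusted p = 0.0319), past the p limit alone. Hoxa7, which acts in the chest region, had 0.67 (-0.13 to 1.48). Within this cluster 6 of the 8 tested genes had positive fold changes, the exceptions being the neighbours Hoxa5 and Hoxa6.

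In HoxB 0 of the 6 tested genes were called by edgeR or by DESeq2. An unadjusted p under 0.05 by edgeR was seen for 1 of the 6, against 8645 of all 16794 genes. Hoxb4 came nearest to a call, with 0.189, 0.240 and 0.223 FPKM at the rising doses on day 5 and 0.228, 0.109 and 0.154 on day 10, all above 0.101 and 0.0730 at 0 μM. On the log2 scale the difference was 1.12 (standard error 0.43, 95% interval 0.16 to 2.08), with an adjusted p = 0.0588 by edgeR, and it was called without the library of 150 μM on day 10. In the untreated libraries it had 0.222 and 0.274 FPKM, and against them the sign turned (-0.36). Hoxb8 went the other way, with 0.0295 to 0.149 FPKM in treated cells against 0.154 and 0.152 at 0 μM, and a log2 fold change of -0.94 (95% interval -2.14 to 0.27). It was called without the library of 150 μM on day 5. Hoxb9 had 6, 16 and 10 counts at 100, 150 and 200 μM on day 5 and 0, 18 and 13 on day 10, against 0 and 4 counts at 0 μM and 0 in both untreated libraries. Its 95% interval on the log2 scale was the widest of the 14 (-0.43 to 4.73, adjusted p = 0.159 by edgeR). Hoxb3, Hoxb5 and Hoxb6 had log2 fold changes of 0.13, 0.37 and -0.32, and that of Hoxb6 turned to 0.39 against the untreated libraries. For 6 of the 14 genes, Hoxa3, Hoxa5, Hoxa6, Hoxa9, Hoxb4 and Hoxb8, the FPKM ranges of treated and 0 μM libraries did not overlap, against 51.1% of all genes tested.

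**Figure D4:**
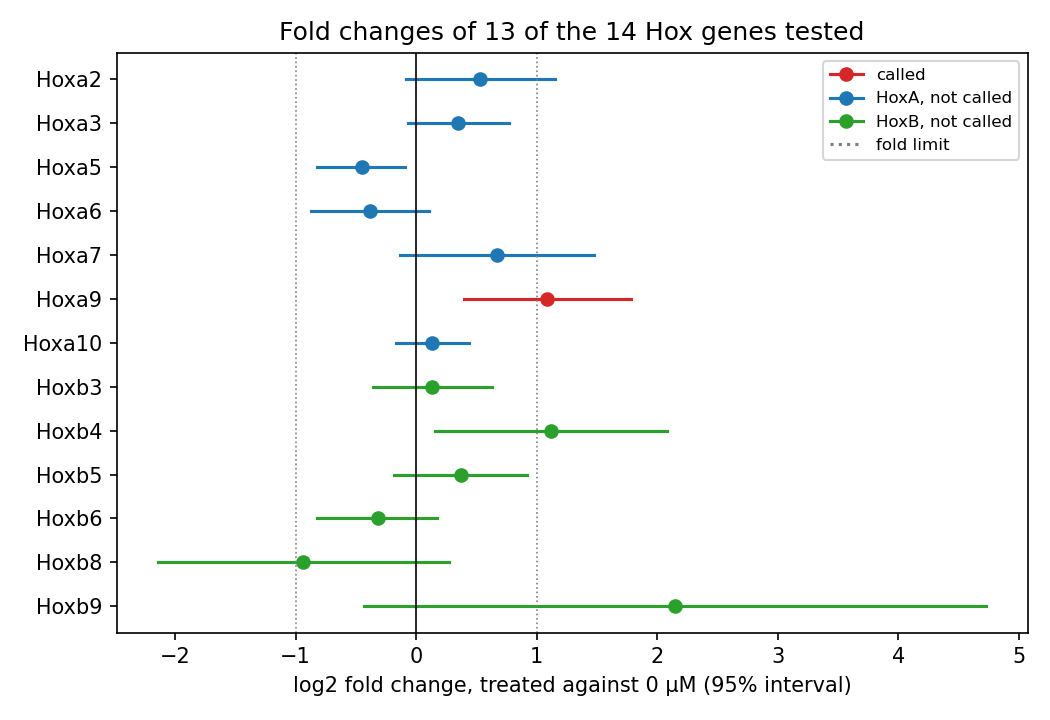
Log2 fold change of treated cells against 0 μM (horizontal axis) for 13 of the 14 Hox genes tested, in cluster order, with lines for the 95% interval of edgeR's fit and dotted lines at the fold limit of 1. Hoxa9 in red is the called gene at 1.09, and Hoxb9 at the bottom has the widest interval, from -0.43 to 4.73.

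Neither the day nor the dose gave a call among Hox genes. The difference of the treatment effect between days was tested for 14 Hox genes and 0 were called, against 0.0119% of all 16794 genes. An unadjusted p under 0.05 by edgeR was seen for 0 of the 14, against 1395 of all genes. DESeq2 called 0 Hox genes as well. Hoxa9 was higher by 1.40 (standard error 0.43) on day 5 and by 0.79 (standard error 0.42) on day 10 on the log2 scale, a difference of -0.61 (95% interval -1.92 to 0.69). In treated cells, day 10 was compared with day 5 for 13 Hox genes, and 0 were called by edgeR, against 0.936% of 16020 genes. The log2 fold changes of the 13 ran from -0.37 to 0.28, and DESeq2 called 0 of them. An unadjusted p under 0.05 by edgeR was seen for 0 of the 13, against 2725 of all 16020 genes. The trend with dose from 100 to 200 μM gave 0 calls among 13 Hox genes by edgeR and by DESeq2, 0 of them at an unadjusted p under 0.05, and 0% of all 16020 genes, where 380 had such a p. The trend was largest for Hoxb9 (1.20 per 100 μM, 95% interval -0.94 to 3.34), and for Hoxa10 it was -0.06 (-0.49 to 0.36).

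Several Hox genes share exons with other genes, and the sources used here do not say whether reads were counted by strand. Exons of genes on the opposite strand covered 52.9% of the exonic bases of Hoxb3, 35.0% of Hoxa11, 27.3% of Hoxb2, 25.4% of Hoxa3 and 20.4% of Hoxa7, so reads of the pairs could not be told apart. Hoxa5, Hoxa6, Hoxa10, Hoxb4, Hoxb6, Hoxb8 and Hoxb9 overlapped no other annotated exon, and of Hoxa9 the overlap was 1.5%, with a microRNA gene. Hoxd3 and Hoxd4 share 62.3% and 52.3% of their exonic bases with genes on the same strand, and both had 0 counts. Inside HoxA the table also lists 5730596B20Rik, set antisense in the span of Hoxa3, with 37 to 134 counts per library, and Gm28308, which reaches from Hoxa2 to Hoxa3, with 0 to 11. None of 18 named noncoding RNAs of the clusters is listed.

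The genes beside the clusters were measured in the same comparison. Evx1 and Evx2, homeobox genes next to Hoxa13 and Hoxd13, had at most 2 counts in any library, as did Hoxa13. Of the 14 flanking genes listed, 9 reached a mean of 1 FPKM, among them Cbx5 at 19.9 ± 2.40 FPKM and Hibadh at 38.9 ± 2.23 in treated cells (SD, n = 6). Calcoco2, Ttll6 and Skap1 did not, with treated means of 0.0091, 0.026 and 0.072 FPKM. Of 14 flanking genes 9 were tested and 0 were called by edgeR, against 19.4% of all genes, or by DESeq2. An unadjusted p under 0.05 by edgeR was seen for 4 of the 9, against 8645 of all 16794 genes. The median log2 fold change of the 9 was 0.11, against 0.05 for all genes. The largest in each direction were -0.63 for Cbx5 and 0.49 for Hibadh.

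Transcripts of the partners and regulators of Hox proteins were measured in the same libraries. Of the 9 TALE cofactors, homeodomain proteins that bind DNA together with Hox proteins, 8 had a mean of at least 1 FPKM and 1 of the 9 was called, against 19.4% of all genes. Pbx4 fell from 1.14 and 1.21 FPKM at 0 μM to 0.424 ± 0.0908 (SD, n = 6), with a log2 fold change of -1.22 (adjusted p = 0.00335 by edgeR). Against the untreated libraries, at 1.15 and 0.234 FPKM, it was not called. Pbx3 rose by 0.88 (adjusted p = 9.13e-05) and Meis2 by 0.51 (adjusted p = 0.00146) on the log2 scale by edgeR, under the fold limit. Pknox1 went the other way, with -0.71 (adjusted p = 0.00582 by edgeR), also under that limit. The median log2 fold change of the cofactors was 0.45, against 0.05 for all genes. Of 29 Polycomb genes 1 was called higher and 1 lower, against 13.4% and 5.98% of all genes, and their median was -0.13. Ezh1, a methyltransferase of Polycomb complex 2, had 25.9 ± 1.58 FPKM in treated cells (SD, n = 6) against 10.3 and 10.5 at 0 μM, a log2 fold change of 1.36. Against the untreated libraries (11.1 and 34.0 FPKM) this call was lost. Pcgf5, a subunit of complex 1, had 3.84 ± 0.957 FPKM (SD, n = 6) against 10.1 and 9.49, a log2 fold change of -1.53, and this call held in all 20 alternatives run. Ezh2, the main methyltransferase of dividing cells, had -0.86, under the fold limit. Of 12 genes listed under Trithorax and demethylases, most of which oppose Polycomb, 0 were called by edgeR or by DESeq2, against 19.4% of all genes by edgeR. Of these 12, 7 had an unadjusted p under 0.05 by edgeR, against 8645 of all 16794 genes tested. The median log2 fold change of the 12 was -0.25, and the largest was -0.56 for Kansl2.

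Genes of retinoic acid, Cdx and Gdf11 signalling act on Hox clusters in the embryo. Of 23 genes 14 were tested, 4 were called higher and 2 lower, against 13.4% and 5.98% of all genes, with a median log2 fold change of -0.05. Aldh1a1, an enzyme that makes retinoic acid, had 105 ± 9.70 FPKM in treated cells (SD, n = 6) against 2.32 and 2.49 at 0 μM, a log2 fold change of 5.55. Cyp26b1, an enzyme that degrades retinoic acid, had 89.8 ± 37.5 FPKM (SD, n = 6) against 2.97 and 1.96, a log2 fold change of 5.08. Egr2, which switches on Hoxa2 and Hoxb2 in hindbrain segments, had 1.77 ± 0.686 FPKM (SD, n = 6) against 12.1 and 10.4, a log2 fold change of -2.66. Against the untreated libraries Aldh1a1 and Egr2, whose values there were far apart, were no longer called, and Cyp26b1 (3.10 and 4.63 FPKM) still was. The other called genes were Dhrs3, Aldh1a3 and Cyp26a1, and the calls of Aldh1a3 and Cyp26a1 were lost without either of the 0 μM libraries. The Cdx genes, which act on the middle of the clusters, had at most 7 counts in any library. Over the same libraries Hoxb1, a gene that retinoic acid is known to switch on, had 0 counts, and it was named after this was seen. Also toward the low-numbered end, Hoxa2, Hoxa3 and Hoxb3 had log2 fold changes of 0.53, 0.35 and 0.13 against 0 μM, none called. Against the untreated libraries these were 1.07, 0.24 and 0.51, and of them Hoxa2 was called. Whether retinoic acid acted on the clusters was not tested.

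Genes that pattern the skull were set beside genes that pattern the limb and trunk. Of 31 skull and craniofacial genes 24 had a mean of at least 1 FPKM, among them Prrx2, Prrx1, Six2 and Alx4. Of the 27 tested 3 were called higher and 1 lower, against 13.4% and 5.98% of all genes, with a median log2 fold change of -0.08. Msx1 had 7.33 ± 2.78 FPKM (SD, n = 6) against 2.14 and 1.98 (log2 fold change 1.79), and Alx4 33.4 ± 2.28 FPKM (SD, n = 6) against 13.6 and 13.5 (1.36). Both calls were lost against the untreated libraries, where Msx1 had 2.22 and 4.49 FPKM and Alx4 16.6 and 19.5. Lmx1b had 0.0631 ± 0.0454 FPKM (SD, n = 6) and was listed at 0 in both 0 μM libraries, and its call was lost without that of day 10. The lower gene was Foxc2, with a log2 fold change of -1.10, named after its value was seen and not called without 0 μM of day 5. Of 22 limb and trunk genes 6 reached 1 FPKM. These were Tbx15, Shox2, Tbx18, Tbx2, Emx2 and Tbx3. Of the 8 tested Tbx2 was called, at 5.99 ± 2.45 FPKM (SD, n = 6) against 1.93 and 1.83 (log2 fold change 1.63), and the median of the 8 was -0.03. This was 1 of 8, against 19.4% of all genes. Pax1, Meox2 and Nkx3-2, genes of the vertebral column, had 0 counts in all libraries, and the limb genes Tbx4, Tbx5, Pitx1 and Hand2 had at most 16 counts in any library.

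Marker genes were used to check the label. Of 14 osteoblast markers 13 reached a mean of 1 FPKM over the 8 libraries with a stated time, of which 6 were treated. At 0 μM on days 5 and 10, Col1a1 had 1280 and 1590 FPKM and Runx2 16.3 and 14.8. Ibsp (0.292 and 0.371 FPKM) and Bglap (0.97 and 0.4) lay below 1 FPKM in both libraries at 0 μM. Alpl, the alkaline phosphatase that marks osteoblasts, was listed at 0 and 0.0225 FPKM at 0 μM and rose to 14.9 ± 6.59 (SD, n = 6). Of the 14, 6 were called higher, against 13.4% of all genes, led by Alpl, Ibsp and Postn, and Dmp1 was called lower, though not without 0 μM of day 5. Summed over the list, osteoblast markers had 5090 and 6080 FPKM at 0 μM and 9100 to 18600 in treated cells. Postn carried most of that difference, at 180 and 279 FPKM against 4750 to 10200, and without it the sums were 4910 and 5800 at 0 μM and 4350 to 8330 in treated cells. Col1a1 and Col1a2 had log2 fold changes of 0.01 and 0.09, and Spp1 had -0.56. In the untreated libraries the whole list summed to 4680 and 4630 FPKM. The marker sums of other cell types were small. Over all 10 libraries they reached at most 1.21 FPKM for endothelial, 4.85 for adipocyte and 2.95 for muscle genes, and 0.776 for epithelial genes, in an untreated library. Neural markers summed to 1.09 to 2.99 FPKM in treated cells, 7.66 and 8.66 at 0 μM and 7.59 and 3.73 in untreated cells. Haematopoietic markers summed to 52.6 to 129 FPKM in treated cells, 63.7 and 76.4 at 0 μM and 73.3 and 192 in untreated cells, nearly all from Cd34 (51.3 to 128 in treated cells), and Ptprc, the marker of white blood cells, was at most 0.0373 FPKM. Of 25 tested markers of other cell types, 9 were called higher (3 endothelial, 2 muscle and 1 each of the other lists) and 1, the neural gene Tubb3, lower, against 13.4% and 5.98% of all genes. Vwf, Cdh5, Ckm and Tubb3 kept the call whichever library was left out, and Spi1, Tek, Lep, Des, Krt14 and Elavl3 did not. The part of these markers in the Hox values was not tested. The sum over all Hox genes ran from 30.38 to 42.31 CPM over the 10 libraries, lowest in the untreated libraries (31.32 and 30.38) and 37.86 and 38.06 at 0 μM.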

How the data were processed

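RNA of MC3T3-E1 cells was sequenced from 10 libraries. The authors deposited 1 table holding raw read counts and FPKM values for every gene and library. The submitters' processing notes list HISAT2 2.0.4 and GATK 3.2-2; the counting program, its strand setting, the genome build and the annotation are not given in the sources used here. Authors' comparison columns in the table (fold changes and p-values of single libraries) were not used. The members were the 40 rows named by the rule, of which 39 were found by identifier in GENCODE M21 (GRCm38); members, gene lists and tests were chosen with earlier results of these data known.

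Counts were analysed in R 4.3.3 with edgeR 4.0.16 (TMM, filterByExpr, quasi-likelihood test) over all 16794 genes that passed the filter, and p-values were adjusted over all of them; limits were a log2 fold change of 1 and an adjusted p of 0.05. Treated against 0 μM had day as a covariate, the difference between days 4 groups, and day and dose were tested within treated libraries. Doses stood in for replicates. FPKM served for levels. Alternatives were DESeq2 1.42.0, limma 3.58.1 on log2(FPKM + 1) and log2(FPKM + 0.1), other scalings and filters, a model without day, the p limit alone, glmTreat, the untreated libraries as or among the controls, and each library left out; their use on the gene lists was added after the data were seen. The tests were tested on simulated data with 200 changed genes. Named genes were the called Hox genes, the 2 of highest mean FPKM in each cluster, and up to 3 called members of each list by size of change; other genes were named after their values were seen. Promoter windows were read from RefSeq (GRCm38.p6). Tables were made with Python 3 and pandas. Protein sequences were not used here. Some genes enter the counts but are not reported here by name.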

Additional observations from a re-analysis of the deposited data

Results flagged for a closer look

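In 4 of the 14 Hox genes checked, 1 of the 6 treated libraries lay apart from the other 5, by a gap divided by the whole range that exceeded Dixon's 95% limit, which chance passes in about 1 group in 20. Hoxb9 had 0 counts at 100 μM on day 10 against 6 to 18 in the others (ratio 0.788). Hoxb3 was lower at 100 μM on day 10, with 69 counts and a log2 CPM of 1.45 against 2.06 to 2.40 (0.644). Hoxa5 was higher at 100 μM on day 5, at a log2 CPM of 2.57 against 2.16 to 2.28 (0.69). Hoxb5 was lower in that library, at 0.68 against 1.11 to 1.35 (0.644). All 4 flags fell in the 2 libraries at 100 μM, which were among the 6 shallower ones. The part of depth was not tested. The share of all genes flagged in this way was not determined, so the flags are not shown to be particular to Hox genes.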

How the results depend on the processing

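The count of 1 called Hox gene was the same with DESeq2, with library totals or DESeq2 size factors for scaling, with both other filters and without the day covariate. It was 2 without the fold limit (Hoxa9 and Hoxa5) and 0 with glmTreat. With the untreated libraries it was 2 when they stood in for 0 μM (Hoxa2 among them) and 0 when they were added to it. With limma it was 0 on either FPKM scale, though Hoxa9 passed the p limit on both (adjusted p = 0.0276 and 0.0277 by limma). Its log2 fold changes on these scales were 0.21 and 0.74. The constant added before the log shrinks fold changes at low FPKM, so the fold limit was harder to reach there. Leaving out each library in turn gave 0 to 2 calls: 0 without 0 μM on day 5, and 2 without 150 μM on day 5 (Hoxa9 and Hoxb8) or on day 10 (Hoxa9 and Hoxb4). Hoxa9 kept its sign in all 20 alternatives (0.21 to 1.39) and its call in 14. Its adjusted p ran from 0.00763 to 0.208 over edgeR, DESeq2 and limma with glmTreat left out. By glmTreat, which asks whether the change lies beyond a log2 of 1, it was 0.813. Against the untreated libraries alone the log2 fold change turned to 0.39 for Hoxb6, 0.29 for Hoxa5, -0.36 for Hoxb4 and 0.32 for Hoxa6; the cause was not tested. Day, dose and the difference between days kept 0 Hox calls in each alternative run. The expressed rows numbered 3 at a limit of 2 FPKM and 10 at 0.5, and the silent ones 23 at 5 counts. Of the gene lists 31 members were called. This was 19 at 10 counts in each library, 65 without the fold limit, 19 with glmTreat, 18 against the untreated libraries, 20 with them added to 0 μM, 16 with limma on log2(FPKM + 1), and 26 to 32 when a library was left out. Over all genes 3259 were called, against 1836 at 10 counts in each library, 7280 without the fold limit, 1570 with glmTreat, 1538 against the untreated libraries, 1739 with them added and 1138 with limma on log2(FPKM + 1). Between days 2 genes differed, 71 with DESeq2, 100 at 1 count in total and 0 to 9 with a library left out. Day 10 against day 5 gave 150, 255 with DESeq2, 431 at 1 count in total and 16 to 200 with a library left out. The dose trend gave 0, 2 with DESeq2 and at most 1 with a library left out. No paired analysis was possible because the labels carry no replicate numbers. With 2 libraries at 0 μM, counts under about 10 carry little information on change.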
